A study of Mus musculus with 12 samples.

Results

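The 10 genes Fos, Fosb, Fosl1, Jun, Junb, Egr1, Egr2, Ier3, Nr4a1 and Dusp1 were followed across 12 mouse skin libraries. They were taken by symbol from the 23235 gene symbols of the deposited expression tables, by a rule with no threshold on their measured values but with earlier results of these data known, and all 10 were listed once in every library. Immediate early genes are switched on within minutes of a stimulus, without new protein synthesis, mainly through MAP kinases acting on the factors SRF, ELK and CREB. The FOS and JUN proteins pair to form AP-1, a transcription factor that binds TGACTCA and related elements. In mouse skin AP-1 acts downstream of the tumour promoter TPA, and Fos is known to be needed for malignant progression of skin tumours. EGR1 and EGR2 are zinc finger factors, NR4A1 is an orphan nuclear receptor, DUSP1 is a phosphatase that switches MAP kinases off, and IER3 is a stress-induced regulator of survival and ERK signalling.

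All libraries came from FVB/NJ mice, and camphor white oil (CWO) is a distilled fraction of camphor oil. The papillomas were pre-malignant skin tumours, raised on mice shaved at 6 to 7 weeks of age with 1 dose of 400 nmol of the carcinogen DMBA and then 10 nmol of TPA 2 times a week. Papilloma CWO mice then had 6 weeks of 20% CWO and papilloma vehicle mice 6 weeks of acetone, with 4 tumours pooled per mouse and 3 mice per group. Epidermis CWO mice had been shaved and, 1 week later, received 400 µL of 20% CWO. Epidermis vehicle mice received acetone in the same way, both epidermis groups were taken after 24 h, and no age is given for them in the labels. Whether TPA went on beside CWO, and how long before harvest the last dose of TPA or CWO was given to the papilloma mice, is not given in the sources used here. Of 5 treated mice, the 3 epidermis samples with the best RNA per treatment were sequenced. Epidermis was freed by 40 min in 3.8% ammonium thiocyanate while papillomas were homogenised whole, so tissue and isolation method cannot be told apart. Exposure to DMBA and TPA, 6 weeks against 24 h of treatment and the pooling of tumours also went with tissue. These cannot be told apart from tissue either, including where the CWO effects of the tissues are compared. PolyA RNA was sequenced, and fragments recovered from the expression values of genes summed to between 11.1 and 24.6 M (mega) per library. The sequencing depth itself is not given in the sources used here. Keratin genes of keratinocytes were abundant throughout: Krt5, a basal layer keratin, lay between 2580 and 4138 FPKM (fragments scaled to transcript length and to library depth) in all 12 libraries. Krt14 lay between 2605 and 5279 FPKM in epidermis and between 15369 and 17073 FPKM in papillomas. Krt10 lay between 9174 and 11631 FPKM in epidermis and between 2061 and 8028 FPKM in papillomas. Summed skeletal muscle markers came to between 10.0 and 460 FPKM in papillomas, to between 3405 and 4408 FPKM in epidermis CWO libraries, and to 12759, 19980 and 4052 FPKM in epidermis vehicle libraries 1, 2 and 3, where no muscle marker was at 0. In bulk tissue, fewer cells of a type and less RNA per cell cannot be told apart.

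The 250 bases before the start of 5 of the genes are shown, and 4 of these varied strongly between libraries and carry a common short element there. They were chosen with both known, so the element is no evidence of a link to the spread. Of the 10 genes, 8 matched an entry of the RefSeq promoter table (GRCm38.p6), whose coordinates are used for these sequences only. Fosl1 and Egr1 had no entry. Capitals mark TGACG, a partial CRE (the cyclic AMP response element) bound by CREB and its relatives, on either strand (CGTCA on the other), in Fos, Fosb, Nr4a1 and Dusp1. In Jun they mark TGACATCA, an AP-1-like element. The windows are chr12:85473640-85473889 on the plus strand for Fos, chr7:19310046-19310295 on the minus strand for Fosb, chr15:101266596-101266845 on the plus strand for Nr4a1, chr17:26508473-26508722 on the minus strand for Dusp1 and chr4:95052223-95052472 on the minus strand for Jun.
Fos: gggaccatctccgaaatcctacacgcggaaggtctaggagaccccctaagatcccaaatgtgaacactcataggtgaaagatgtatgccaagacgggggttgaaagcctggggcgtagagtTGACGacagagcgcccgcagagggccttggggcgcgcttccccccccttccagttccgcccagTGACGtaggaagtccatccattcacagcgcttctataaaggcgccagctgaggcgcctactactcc
Fosb: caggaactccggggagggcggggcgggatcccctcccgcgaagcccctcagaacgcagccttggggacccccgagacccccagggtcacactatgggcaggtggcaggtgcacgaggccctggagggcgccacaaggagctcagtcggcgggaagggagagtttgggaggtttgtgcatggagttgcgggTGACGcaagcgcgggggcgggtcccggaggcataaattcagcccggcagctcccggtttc
Nr4a1: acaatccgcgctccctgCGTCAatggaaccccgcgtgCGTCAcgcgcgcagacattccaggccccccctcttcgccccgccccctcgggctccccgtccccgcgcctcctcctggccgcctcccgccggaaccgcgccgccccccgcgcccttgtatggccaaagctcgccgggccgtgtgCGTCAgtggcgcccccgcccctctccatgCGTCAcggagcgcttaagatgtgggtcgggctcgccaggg
Dusp1: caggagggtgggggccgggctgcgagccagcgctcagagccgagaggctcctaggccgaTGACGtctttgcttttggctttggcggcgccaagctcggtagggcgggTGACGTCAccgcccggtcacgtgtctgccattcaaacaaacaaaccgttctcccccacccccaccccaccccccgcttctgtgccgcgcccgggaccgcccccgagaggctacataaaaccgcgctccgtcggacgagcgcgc
Jun: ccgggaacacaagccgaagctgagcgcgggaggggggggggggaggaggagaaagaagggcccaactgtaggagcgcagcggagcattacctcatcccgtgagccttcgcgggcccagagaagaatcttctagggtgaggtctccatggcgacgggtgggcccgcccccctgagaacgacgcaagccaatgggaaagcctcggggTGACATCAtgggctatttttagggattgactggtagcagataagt
TGACG was found in 6 of the 8 matched genes, namely Fos, Fosb, Junb, Egr2, Nr4a1 and Dusp1, counting a gene with several starts if any window held it. Over the whole table, 19.8% of 27025 genes held it by the same count, and 17.8% of 32851 promoter windows. Fos had 2 copies, Nr4a1 4 and Fosb 1. Dusp1 had 3, of which 2 overlap on opposite strands within 1 full CRE, TGACGTCA, a palindrome present in 1.55% of all windows. TGACATCA was present in 2.93% of windows and, among the matched genes, in Jun. Neither Jun nor Ier3 had TGACG in its window, and the canonical AP-1 site TGACTCA, present in 4.46% of windows, was in none of the 8. The EGR site GCGGGGGCG occurred in Fosb and Nr4a1, against 2.57% of windows. These matches describe letters in these windows and not binding.

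Fosb, Fosl1 and Nr4a1 were the least abundant of the genes in vehicle-treated epidermis per length and Junb the most. Some of the 10 had a level that went with the tissue, and others varied widely from library to library. Fosl1 did both, with its widest spread in epidermis CWO, where it rested on few fragments, and Jun did neither. Differences are given as log2 fold changes on the log2(FPKM + 1) scale, from limma across all genes tested, with an adjusted p under 0.05 as the threshold. The scale understates the change of genes of a few FPKM. The labels do not say that epidermis libraries came from separate mice, so p-values measure the spread between these samples.

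**Figure D1:**
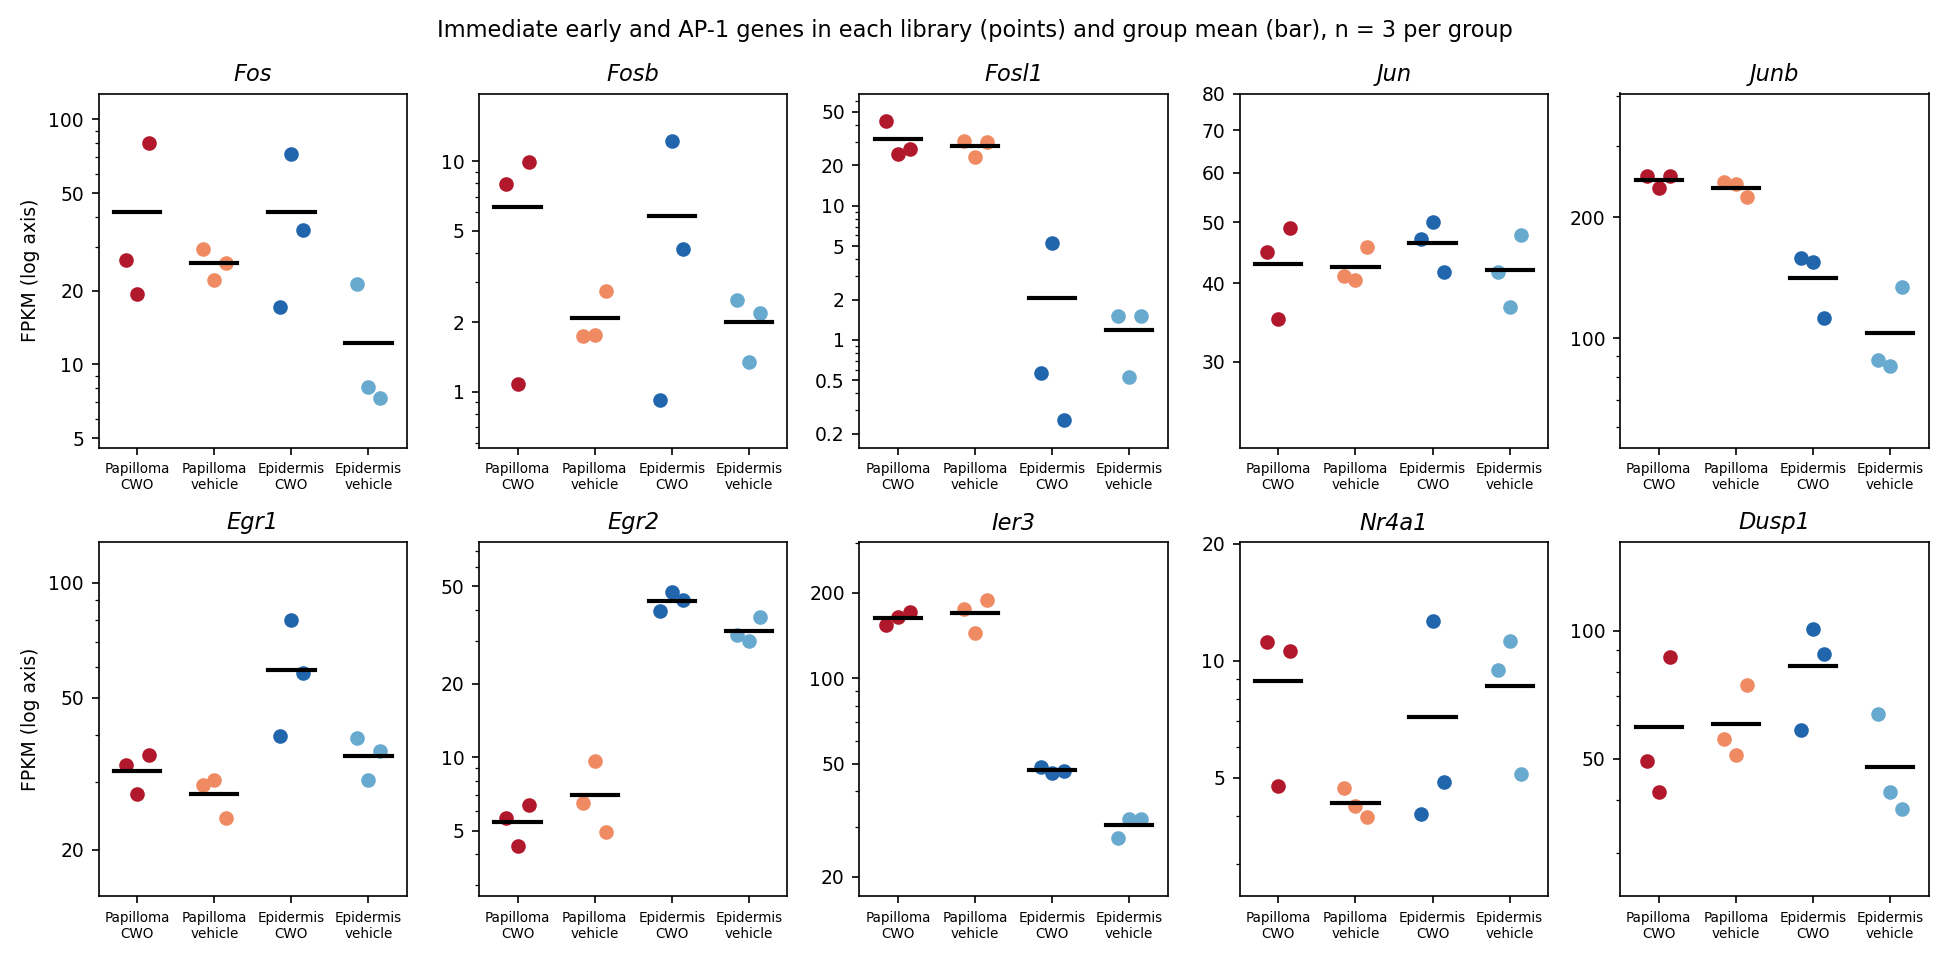
FPKM of each gene on a log axis, 1 point per library and a bar at the group mean, 3 libraries per group. Fosl1, Junb and Ier3 were higher in every papilloma library than in any epidermis library and Egr2 was lower in every one, while Fos, Fosb and Nr4a1 spread widely within groups.

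With CWO against vehicle in epidermis, 1 of the 10 genes rose, Ier3, and none fell. Over all 12289 genes tested, 1.99% passed in either direction, 1.81% as higher and 0.179% as lower. The log2 fold change was positive for 9 of the 10 and negative for Nr4a1, with a median of 0.55 against 0.02 over all genes tested. The 3 CWO libraries lay wholly above the 3 vehicle libraries for 3 genes, Egr1, Egr2 and Ier3, and 12.1% of all genes tested did so. At an unadjusted p under 0.05 there were 6 of the 10, Fos, Junb, Egr1, Egr2, Ier3 and Dusp1, and 1809 of all 12289 genes (14.7%). Markers of other cell types differed in the same comparison. Of 5 neutrophil markers tested 1 rose and all 5 were positive, with a median of 0.78. Sums over the 7 measured, untested ones included, were 198 to 314 FPKM with CWO and 78.2 to 159 FPKM with vehicle. Retnlg was at 0 in 1 library of each group. Of 9 fibroblast markers tested 1 rose and 2 fell, with a median of -0.98. Sums over the 11 measured were 86.7 to 103 FPKM with CWO and 64.1 to 138 FPKM with vehicle, none of them at 0. All 17 muscle markers were negative, with a median of -1.28, and none passed. Of 10 hair follicle and sebaceous markers 1 rose and 1 fell, and no keratinocyte, macrophage, T cell, endothelial or mast cell marker tested passed. Their part in the differences of the 10 genes was not tested. In papilloma, 0 of the 10 genes and 0 of 12144 genes (0%) passed by limma for CWO against vehicle, although 306 genes had an unadjusted p under 0.05. By limma-voom on recovered fragments 0 genes passed and 343 had an unadjusted p under 0.05. Nr4a1 was the 1 gene of the 10 whose papilloma CWO libraries lay wholly above vehicle, against 3.02% of all genes. The CWO effect in papilloma minus that in epidermis passed for 0 of the 10, against 0.743% of 13186 genes. By that difference 1305 genes had an unadjusted p under 0.05, Ier3 and Egr2 among them, and limma-voom called 49 genes.

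Between tissues most genes of the whole table differed. In papilloma against epidermis under vehicle 6 of the 10 genes passed, 4 higher and 2 lower, against 70.2% of 12790 genes (31.8% higher and 38.3% lower). Under CWO 5 of the 10 passed, 3 higher and 2 lower, against 68.8% of 12691 genes (29.1% higher and 39.7% lower). Both shares of the 10 lay below those of all genes tested, so the number that passed is not particular to them. Fosl1 reached the filter of 1 FPKM in 3 libraries through papilloma alone in both comparisons, so that its direction was set by the filter, and 5 of the other 9 passed under vehicle, 3 higher and 2 lower. The libraries of the 2 tissues did not overlap for 7 of the 10 genes under vehicle, against 74.5% of all genes tested, and for 5 of the 10 under CWO, against 74%. With the muscle marker mean as a covariate, which runs almost along the tissues, 2 of the 10 passed under vehicle and 0 under CWO, as did 1479 and 1 of all genes. The 2 tissue comparisons share no library with each other, but each shares libraries with a CWO comparison.

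**Figure D2:**
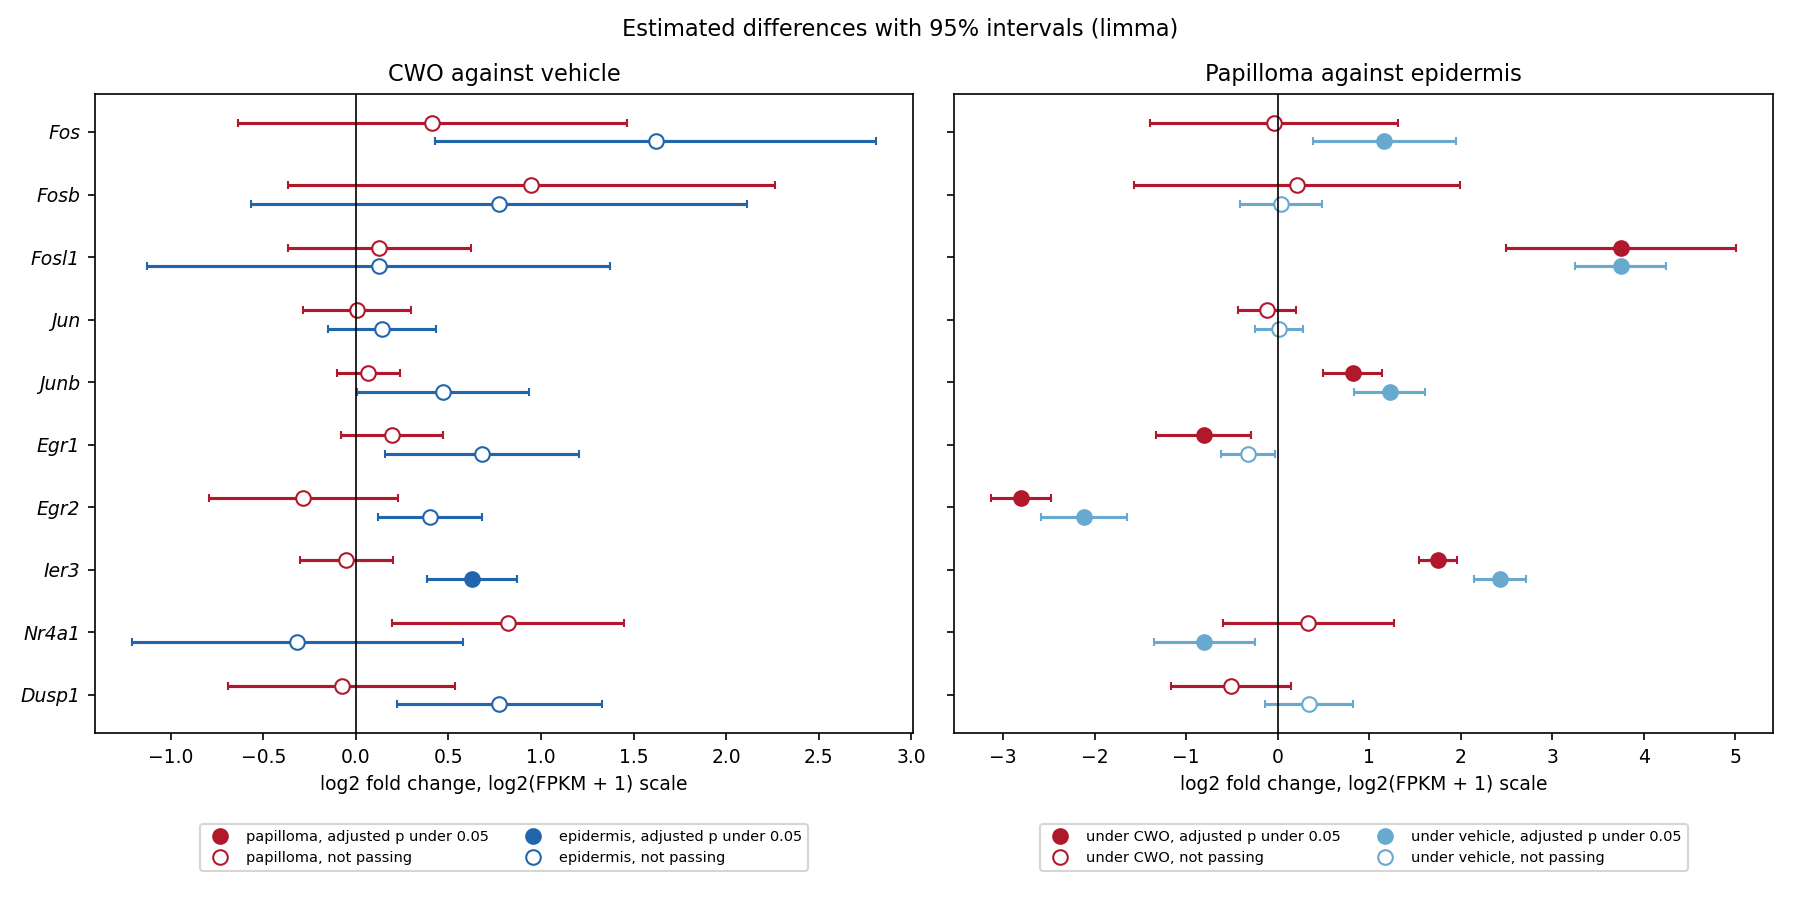
Log2 fold changes with 95% intervals from limma, for CWO against vehicle (left) and papilloma against epidermis (right); filled points passed an adjusted p under 0.05. On the left 1 point is filled, Ier3 in epidermis, and on the right Fosl1, Junb, Egr2 and Ier3 are filled in both tissue comparisons.

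Fos, the founding member of its AP-1 family, lies at chr12:86814851-86818219 (mm9). It had 26.6, 19.3 and 79.7 FPKM in papilloma CWO libraries 1 to 3, and 29.7, 22.1 and 26.0 FPKM in papilloma vehicle libraries. In epidermis it had 17.2, 72.5 and 35.5 FPKM with CWO and 21.2, 8.09 and 7.32 FPKM with vehicle. Library 3 of papilloma CWO and library 2 of epidermis CWO stood above all others, and within each tissue the CWO and vehicle ranges overlapped. Fos averaged 41.7 ± 28.2 FPKM in epidermis CWO and 12.2 ± 7.83 FPKM in epidermis vehicle (SD, n = 3 each), a log2 fold change of 1.62 (95% interval 0.43 to 2.81) with an adjusted p of 0.193. With vehicle, papillomas lay above epidermis without overlap, by 1.17 ± 0.34 (SE) with an adjusted p of 0.0144. That call ended without epidermis vehicle library 2 (adjusted p 0.0537), in the fit of all 12 libraries (0.0783) and with robust variance (0.0625). It also ended with the muscle marker mean as a covariate, at 1.38 with an adjusted limma p of 0.416. Under CWO the tissue difference was -0.04 (95% interval -1.39 to 1.32, adjusted p 0.958).

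Fosb, a close relative of Fos known for its long-lived splice form in brain, lies at chr7:19888045-19895394 (mm9). Its level was low: 7.96, 1.08 and 9.89 FPKM in papilloma CWO libraries against 1.75, 1.76 and 2.73 FPKM with vehicle, and 0.916, 12.3 and 4.14 FPKM in epidermis CWO libraries against 2.50, 1.35 and 2.19 FPKM with vehicle. In each tissue 2 CWO libraries exceeded every vehicle library and 1 lay below every vehicle library. Its log2 fold change for CWO was 0.95 (95% interval -0.37 to 2.26) in papilloma and 0.77 (-0.57 to 2.11) in epidermis, neither passing. Its size moved with single libraries. The papilloma value was 1.70 without CWO library 2 and 0.50 without CWO library 3, and the epidermis value was 1.48 without CWO library 1 and 0.08 without CWO library 2. The authors' deposited table lists Fosb in papilloma at a log2 fold change of 1.62 with p = 0.101, an adjusted p of 1.

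Fosl1, which encodes FRA-1, an AP-1 subunit linked to invasive growth, had the largest log2 difference between tissues of the 10 genes. It lies at chr19:5447698-5455938 (mm9). It had 42.8, 24.2 and 26.4 FPKM in papilloma CWO libraries, 30.4, 22.9 and 30.0 FPKM in papilloma vehicle libraries, 0.571, 5.31 and 0.253 FPKM in epidermis CWO libraries and 1.50, 0.529 and 1.51 FPKM in epidermis vehicle libraries. Every papilloma library was above every epidermis library, and within each tissue the treatments overlapped. Papilloma exceeded epidermis by 3.75 ± 0.21 (SE) under vehicle, with an adjusted p of 2.39e-06, and by 3.75 ± 0.55 under CWO, with an adjusted p of 0.000358. As the gene reached the filter through papilloma alone, its direction was set by the filter. These limma p-values are therefore no independent support for that direction. The ratio of mean FPKM was 23.6 under vehicle, and 18.5 to 27.4 when single libraries were left out. Under CWO it was 15.2 and rested on epidermis CWO library 2, without which it was 75.7, with a log2 difference of 4.47. Leaving out any other single library gave ratios of 10.6 to 16.9 under CWO. In epidermis the gene rests on few fragments, 5.66 to 107 per library, against 528 to 1237 in papillomas. It is also the 1 gene of the 10 whose listed span overlaps another gene, Ccdc85b. In papillomas the fragments recovered from its FPKM were 3.69 times the counts in the authors' deposited table, against 0.934 to 1.01 times for the other 9 genes and 1.12 times for Ccdc85b. The cause of this gap was not tested, and the absolute level of Fosl1 is uncertain by it.

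Of the JUN partners, Junb passed in both tissue comparisons and Jun in no comparison. Jun, at chr4:94715727-94718913 (mm9), had 44.9, 35.1 and 49.0 FPKM in papilloma CWO libraries, 41.1, 40.5 and 45.7 FPKM in papilloma vehicle libraries, 47.1, 50.1 and 41.8 FPKM in epidermis CWO libraries and 41.7, 36.7 and 47.7 FPKM in epidermis vehicle libraries. All 4 ranges overlapped, and no comparison passed. The intervals were narrow: -0.28 to 0.30 for CWO in papilloma, -0.15 to 0.43 for CWO in epidermis, -0.24 to 0.28 for papilloma against epidermis under vehicle and -0.43 to 0.20 under CWO. Junb, at chr8:87500808-87502647 (mm9), encodes a JUN protein that can restrain Jun and is the most abundant of the 10 genes per length. It had 254, 237 and 253 FPKM in papilloma CWO libraries, 244, 241 and 224 FPKM in papilloma vehicle libraries, 158, 154 and 112 FPKM in epidermis CWO libraries and 88.4, 85.4 and 134 FPKM in epidermis vehicle libraries. Every papilloma library lay above every epidermis library. Junb rose in papilloma against epidermis by 1.22 ± 0.17 (SE) under vehicle, with an adjusted p of 0.000266, and by 0.82 ± 0.14 under CWO, with an adjusted p of 0.000931. In epidermis it averaged 141 ± 25.6 FPKM with CWO and 103 ± 27.3 FPKM with vehicle (SD, n = 3 each), the ranges overlapped, and the adjusted p was 0.329.

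The 2 AP-1 families were made up differently in the 2 tissues. Junb made up 73.8%, 73.3%, 42.2% and 33.4% of the summed Jun family FPKM on average in papilloma CWO, papilloma vehicle, epidermis CWO and epidermis vehicle. Jund, a JUN subunit associated with quiescent cells and one of the fixed list of other AP-1 genes, made up 13.4%, 13.5%, 43.8% and 52.7%. Jun stayed between 12.8% and 14.0% in the 4 groups. Jund had 47.3, 45.6 and 42.2 FPKM in papilloma CWO libraries and 39.7, 43.6 and 47.3 FPKM in papilloma vehicle libraries. In epidermis it had 169, 135 and 133 FPKM with CWO and 137, 155 and 187 FPKM with vehicle, with no overlap between tissues. In papilloma against epidermis Jund fell by 1.84 ± 0.13 (SE) under vehicle, with an adjusted p of 6.87e-06, and fell by 1.67 ± 0.12 under CWO, with an adjusted p of 5.89e-06. The summed Jun family level itself differed little, with means of 336, 322, 333 and 305 FPKM.

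Within the Fos family, Fosl2, which encodes FRA-2 and is abundant in differentiating epidermis, kept a mean of 41.2 ± 3.75, 42.5 ± 3.67, 45.3 ± 5.97 and 39.8 ± 3.54 FPKM (SD, n = 3 each) in papilloma CWO, papilloma vehicle, epidermis CWO and epidermis vehicle. Its share of the family ran from 36.2% in papilloma CWO to 73.0% in epidermis vehicle, as the other members changed around it. Fosl1 made up 27.1% and 28.2% in the papilloma groups and 1.73% and 2.08% in epidermis CWO and vehicle. The summed family averaged 121 ± 38.0, 98.3 ± 7.99, 94.9 ± 38.9 and 55.2 ± 7.82 FPKM in the same order. Shares are fractions of one sum, so a rise in one member lowers the others, and the share of Fosl1 carries the limit on its level given above.

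**Figure D3:**
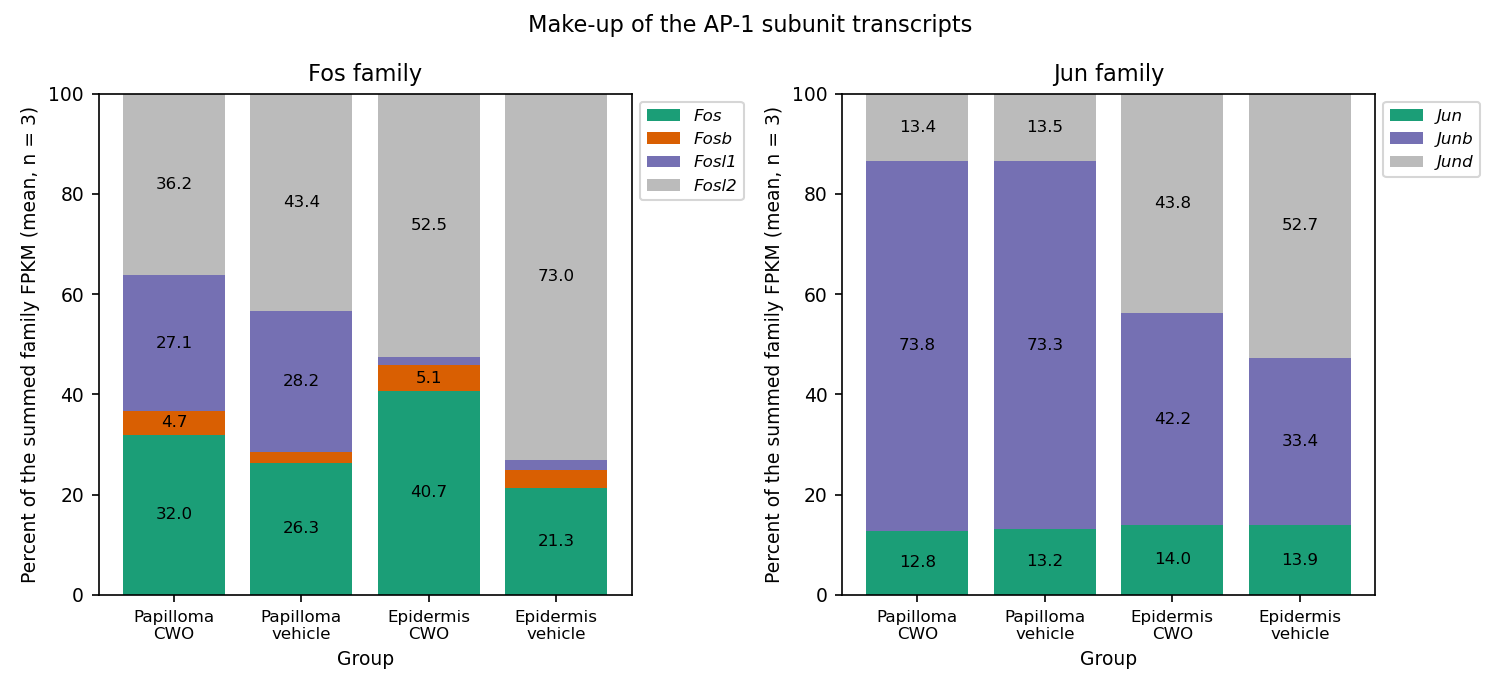
Mean percent of the summed FPKM of the Fos family (left) and the Jun family (right) taken by each gene, 3 libraries per group. Junb took 73.8% and 73.3% of the Jun family in the papilloma groups against 42.2% and 33.4% in the epidermis groups, and Fosl1 took 27.1% and 28.2% of the Fos family against 1.73% and 2.08%.

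Of the 2 EGR genes, Egr2 differed more between tissues than Egr1. Egr1, at chr18:35020861-35024610 (mm9), had 33.3, 27.9 and 35.5 FPKM in papilloma CWO libraries, 29.5, 30.4 and 24.2 FPKM in papilloma vehicle libraries, 39.6, 79.8 and 58.2 FPKM in epidermis CWO libraries and 39.1, 30.5 and 36.2 FPKM in epidermis vehicle libraries. Egr2, at chr10:67000617-67004936 (mm9) and known in hair follicle and nerve as KROX20, had 5.66, 4.33 and 6.37 FPKM in papilloma CWO libraries, 6.49, 9.61 and 4.92 FPKM in papilloma vehicle libraries, 39.8, 47.4 and 44.0 FPKM in epidermis CWO libraries and 31.6, 29.9 and 37.4 FPKM in epidermis vehicle libraries. Both genes were lower in every papilloma library than in any epidermis library of the same treatment. In papilloma against epidermis Egr2 fell by 2.80 ± 0.14 (SE) under CWO, with an adjusted p of 1.10e-06, and fell by 2.12 ± 0.20 under vehicle, with an adjusted p of 3.61e-05. Egr1 fell by 0.81 ± 0.23 under CWO, with an adjusted p of 0.0123. Under vehicle its difference was -0.32 ± 0.13 with an adjusted p of 0.0502, which passed with a pseudocount of 3, with robust variance, with limma-voom, with an FPKM minimum of 5 and without epidermis vehicle library 2. The ratio of Egr1 to Egr2 was 5.57 to 6.46 in papilloma CWO libraries, 3.16 to 4.92 in papilloma vehicle libraries, 0.997 to 1.68 in epidermis CWO libraries and 0.969 to 1.24 in epidermis vehicle libraries. In epidermis both genes were higher with CWO in 3 of 3 libraries than in any vehicle library, by 0.68 ± 0.23 for Egr1 and 0.40 ± 0.12 for Egr2, without passing (adjusted p of 0.212 and 0.173). For Egr1 the lowest CWO library, at 39.6 FPKM, was only just above the highest vehicle library, at 39.1 FPKM. In papilloma the CWO difference of Egr2 was -0.28 (95% interval -0.79 to 0.23), and the CWO effect in papilloma minus that in epidermis was -0.68 ± 0.27 with an adjusted p of 0.393.

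Ier3, at chr17:35958658-35959856 (mm9), had the lowest SD of the 10 genes when pooled over the 4 groups and was the 1 that passed for CWO in epidermis. It had 48.9, 46.5 and 47.1 FPKM in epidermis CWO libraries against 27.4, 32.0 and 32.1 FPKM in epidermis vehicle libraries. The 3 CWO values sat close together and all above vehicle. The log2 fold change was 0.63 ± 0.11 (SE, 95% interval 0.39 to 0.87) with an adjusted p of 0.0255, and the authors' deposited table for epidermis, which lists 176 genes with adjusted p up to 0.00544, holds none of the 10. The size of the change ran from 0.55 to 0.66 when single libraries were left out, but the call ended without any 1 of epidermis vehicle library 1, epidermis vehicle library 2, epidermis CWO library 1 or epidermis CWO library 2, with adjusted p of 0.109, 0.0779, 0.142 and 0.0786. Muscle markers were high in epidermis vehicle libraries 1 and 2. Without both of these Ier3 differed by 0.55 and with the muscle marker mean as a covariate by 0.59, with adjusted p of 0.497 and 0.322. In papilloma it had 154, 164 and 171 FPKM with CWO and 175, 144 and 188 FPKM with vehicle, which overlapped, with a difference of -0.05 (95% interval -0.30 to 0.20). The CWO effect in papilloma minus that in epidermis was -0.68 ± 0.15 with an adjusted p of 0.0620, which passed without epidermis vehicle library 3 and without papilloma vehicle library 2. Ier3 rose in papilloma against epidermis by 1.75 ± 0.09 under CWO and by 2.43 ± 0.12 under vehicle, with adjusted p of 1.10e-06 and 1.28e-06.

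Nr4a1, at chr15:101097277-101105225 (mm9), was low and went with no single group. It had 11.2, 4.76 and 10.6 FPKM in papilloma CWO libraries against 4.70, 4.23 and 3.98 FPKM in papilloma vehicle libraries. These did not overlap, but papilloma CWO library 2 was only just above. The difference of 0.82 ± 0.27 (SE) had an unadjusted limma p of 0.0169 and an adjusted p of 1.00, and the authors' deposited table lists 1.10 with p = 0.0300 and an adjusted p of 1. In epidermis it had 4.05, 12.6 and 4.88 FPKM with CWO and 9.45, 11.2 and 5.11 FPKM with vehicle, which overlapped. The CWO effect in papilloma minus that in epidermis was 1.14 ± 0.54 with an adjusted p of 0.520. In papilloma against epidermis under vehicle Nr4a1 fell by 0.80 ± 0.24 with an adjusted p of 0.0167, a call lost without epidermis vehicle library 1, without papilloma vehicle library 3 and in the fit of all 12 libraries. Without both epidermis vehicle libraries 1 and 2, those high in muscle markers, the difference was -0.21 with an adjusted p of 0.291, and with the muscle marker mean as a covariate it was 0.29 with an adjusted p of 0.807. Under CWO the tissues differed by 0.34 (95% interval -0.60 to 1.27).

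Dusp1, at chr17:26642536-26645417 (mm9), had 58.5, 101 and 88.1 FPKM in epidermis CWO libraries against 63.7, 41.7 and 38.0 FPKM in epidermis vehicle libraries, and the ranges overlapped through epidermis CWO library 1 and vehicle library 1. Its log2 fold change was 0.77 (95% interval 0.22 to 1.33) with an adjusted p of 0.181. In papilloma it had 49.3, 41.8 and 86.7 FPKM with CWO and 55.4, 51.0 and 74.4 FPKM with vehicle, with a difference of -0.08 (95% interval -0.69 to 0.54). Papilloma against epidermis differed by -0.51 (95% interval -1.16 to 0.15) under CWO and by 0.35 (-0.14 to 0.83) under vehicle, neither passing. Without papilloma CWO library 3 the CWO comparison passed, at -0.81 with an adjusted p of 0.0140, and without epidermis vehicle library 1 the vehicle comparison passed, at 0.57 with an adjusted p of 0.0190.

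Within groups, part of the variation of these genes ran along single libraries, apart from the tissue differences of Fosl1, Junb, Egr2 and Ier3. Epidermis CWO library 2 was the highest of the 6 epidermis libraries for 8 of the 10 genes, all but Junb and Ier3. In the papilloma CWO group, library 2 was the lowest for 9 of the 10 genes, all but Ier3, and library 3 was the highest for 7. Such counts were not made over all genes, so they are not shown to be particular to these 10. The SD within groups on the log2 scale, pooled over the 4 groups, was 0.98 for Fosb, 0.83 for Fos, 0.71 for Fosl1, 0.56 for Nr4a1 and 0.42 for Dusp1, against a median of 0.16 over 13150 genes. Those 5 genes stood at the 99.2, 98.9, 98.5, 97.5 and 95.0 percentile of all genes. For Fosl1 the SD was 1.26 in epidermis CWO, 0.41 in epidermis vehicle, 0.43 in papilloma CWO and 0.22 in papilloma vehicle. Jun stood at the 54.6 and Ier3 at the 24.1 percentile, with an SD of 0.17 and 0.12. With group means subtracted, the correlation of a gene with the mean profile of the other 9 over 12 libraries was 0.91 for Fosb, 0.74 for Fos, 0.74 for Egr1, 0.69 for Jun, 0.68 for Fosl1, 0.62 for Nr4a1 and 0.60 for Dusp1. It was 0.31 for Egr2, 0.18 for Junb and -0.18 for Ier3. These are descriptions over libraries that share their groups.

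**Figure D4:**
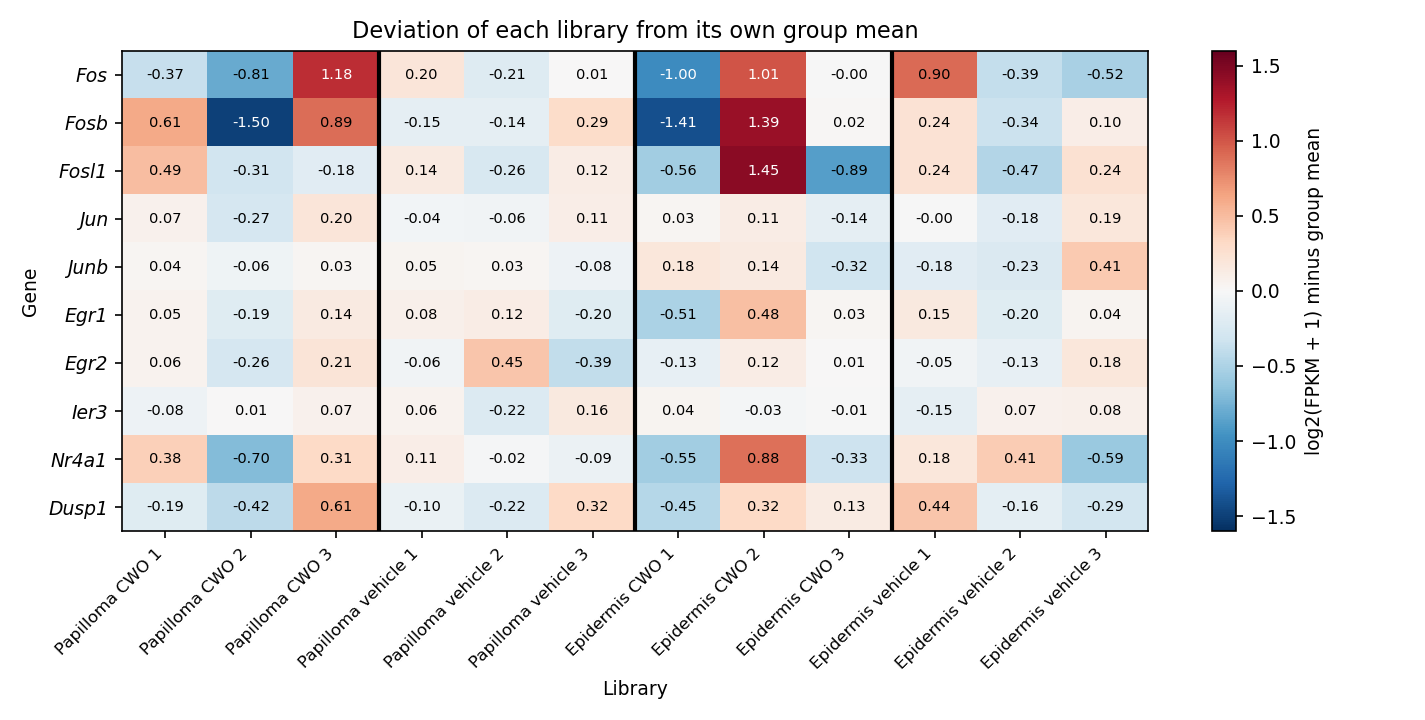
Each library's log2(FPKM + 1) minus its own group mean, with genes in rows and libraries in columns. Epidermis CWO library 2 is red for 9 of the 10 genes, Ier3 being the exception, and papilloma CWO library 2 is blue for 9 of the 10. Such counts were not made over all genes.

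The genes whose pattern was most like the mean profile of the 10 were sought among 8510 genes with a mean of at least 5 FPKM, by Pearson's r over the 12 libraries. Without regard to groups they were Vasn (0.79), Zfp36 (0.77), Rbm47 (0.75), Atf3 (0.74), Eif2ak3 (0.73) and Anapc7 (0.73). With group means subtracted they were Appbp2 (0.93), Atf3 (0.92), Zfp36 (0.91), Zdhhc13 (0.89), Akap13 (0.88) and Arc (0.86). Atf3, Zfp36 and Arc are themselves immediate early or AP-1-related genes on the fixed lists. Atf3, a stress-induced bZIP factor, had 6.33, 2.05 and 9.64 FPKM in papilloma CWO libraries against 3.24, 3.41 and 3.48 FPKM with vehicle, and 3.51, 17.2 and 8.84 FPKM in epidermis CWO libraries against 7.50, 4.37 and 4.91 FPKM with vehicle. Its order of libraries within each CWO group was that of Fos in epidermis, lowest in library 1 and highest in library 2, and in papilloma lowest in library 2 and highest in library 3.

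Other genes of the pathway did not pass in either CWO comparison by limma. Over all genes tested 1.99% passed in epidermis and 14.7% had an unadjusted p under 0.05, and in papilloma 0% passed and 2.52% had one. Of the other immediate early genes, 0 of 32 tested in epidermis passed, with 8 at an unadjusted p under 0.05, and 0 of 33 in papilloma, with 1. AP-1 target genes in skin gave 0 of 14 in epidermis, with 5 at an unadjusted p under 0.05, and 0 of 18 in papilloma, with 2. Other AP-1 subunits gave 0 of 12 in epidermis, upstream kinases and serum response factors 0 of 19, and EGR partners and targets 0 of 7, with 1, 2 and 1 at an unadjusted p under 0.05. In papilloma these 3 lists gave 0 of 10, 0 of 19 and 0 of 7, with none at an unadjusted p under 0.05. The nearest in epidermis was Vegfa, a secreted growth factor for vessels, which had 18.3, 23.7 and 10.9 FPKM with CWO against 6.86, 5.23 and 8.10 FPKM with vehicle. Its difference of 1.22 ± 0.26 (SE) had an adjusted p of 0.0639, and it passed in the fit of all 12 libraries, with an FPKM minimum of 5 and without either library 3 of epidermis. In papilloma the nearest immediate early gene was Cyr61, a matricellular protein gene, with a difference of 0.51 ± 0.13 and an adjusted p of 1.00.

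Between tissues, most AP-1 target genes in skin that were measured in both were higher in papilloma. Of the 20 listed, 18 were tested under vehicle. Of these, 5 reached the filter through papilloma alone, Mmp10, Mmp13, Plaur, Timp1 and Hmga2, and their direction was set by it. Of the 13 that reached it in each tissue, 11 rose and 1 fell. Over all genes tested 70.2% were called, 31.8% higher and 38.3% lower, a share that includes genes past the filter in a single tissue. Under CWO 4 reached the filter through papilloma alone, the same genes without Timp1, and of the other 14 tested 12 rose and 1 fell. Over all genes 68.8% were called there, 29.1% higher and 39.7% lower. Mmp13, a collagenase, averaged 44.0 ± 11.0 FPKM in papilloma vehicle and 0.224 ± 0.339 FPKM in epidermis vehicle (SD, n = 3 each). Hbegf, an EGF receptor ligand, averaged 117 ± 5.92 FPKM in papilloma vehicle and 3.45 ± 0.838 FPKM in epidermis vehicle, a log2 fold change of 4.74 with an adjusted p of 1.07e-07. Mmp10, a stromelysin, averaged 12.5 ± 1.46 FPKM in papilloma CWO and 0.0867 ± 0.0932 FPKM in epidermis CWO, and the hyaluronan receptor gene Cd44 had a log2 fold change of 1.53 with an adjusted p of 2.60e-06 between the same groups. Markers of other cells differed in the same contrast. In papilloma against epidermis under vehicle, 9 of 11 fibroblast, 6 of 6 neutrophil, 5 of 6 endothelial and 5 of 6 mast cell markers tested rose and none fell. Of 9 macrophage markers 7 rose and 2 fell, and of 12 keratinocyte markers 5 rose and 4 fell. All 6 T cell markers and all 16 muscle markers tested fell, and of 12 hair follicle and sebaceous markers 5 rose and 6 fell. In these lists 4 of the neutrophil, 6 of the mast cell, 4 of the endothelial, 4 of the macrophage, 2 of the fibroblast and 5 of the hair follicle markers reached the filter through papilloma alone, and 4 of the T cell, 6 of the muscle, 1 of the macrophage and 2 of the hair follicle markers through epidermis alone. Summed neutrophil markers lay between 9675 and 16876 FPKM in papillomas and between 78.2 and 314 FPKM in epidermis, and summed T cell markers between 20.7 and 31.2 FPKM in papillomas and between 219 and 265 FPKM in epidermis. Their part in the levels of these target genes, and of the 10 genes, was not tested.

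The other immediate early genes were split between tissues, with 14 higher and 10 lower of 33 under vehicle and 10 higher and 11 lower of 34 under CWO. The share that passed was 72.7% under vehicle and 61.8% under CWO, against 70.2% and 68.8% of all genes tested. Among those higher, Phlda1, induced by growth factors, averaged 52.4 ± 3.74 FPKM in papilloma CWO and 4.37 ± 1.75 FPKM in epidermis CWO. Ptgs2, the inducible prostaglandin synthase, averaged 19.1 ± 5.56 FPKM in papilloma CWO and 0.898 ± 0.163 FPKM in epidermis CWO, and it reached the filter through papilloma alone. Upstream factors were also split, with 5 higher and 3 lower of 19 under vehicle (42.1%) and 5 higher and 2 lower of 19 under CWO (36.8%). Elk3, an ETS factor that acts with SRF, rose by 2.96 ± 0.12 (SE) under vehicle and 2.89 ± 0.12 under CWO, with adjusted p of 4.42e-07 and 4.64e-07, while Mapk3, which encodes ERK1, fell by 0.69 ± 0.10 under vehicle and fell by 0.81 ± 0.09 under CWO. Of 7 EGR partners and targets, 1 rose and 3 fell under vehicle (57.1%) and 1 rose and 2 fell under CWO (42.9%). The gene that rose was Nab1, a corepressor that binds EGR proteins, by 0.94 ± 0.13 under vehicle and 0.97 ± 0.10 under CWO. Of 12 heat shock genes, which respond to stress and to handling of tissue, 5 rose and 6 fell in papilloma under vehicle (91.7%) and 5 rose and 5 fell under CWO (83.3%), and 0 passed for CWO in either tissue. The part of handling in the library-to-library spread of the 10 genes was not tested.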

How the data were processed

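Expression was measured by polyA RNA sequencing, TruSeq libraries, in 12 libraries. Per the submitters' processing notes, the authors used bcl2fastq 1.8.4, TopHat2 2.0.4, Cufflinks 2.0.2 and DESeq with mm9; whether counting used strand is not given in the sources used here. The deposited per-library values are FPKM with an interval and a status. Per the file headers, the authors' comparison tables give for each gene a mean signal (normalised count) in each group. The deposited tables also give the ratio or fold of the groups, with log2 beside it, and its p-value before and after adjustment.

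Values whose status was not OK were set to missing, FPKM of 248 repeated symbols were summed, and fragments were recovered from FPKM and its interval, taken as 2 standard deviations of a count. By library, between 67.95% and 69.16% of recovered values under 500 fragments lay within 0.02 of a whole number. Recovered fragments are therefore approximate. Differences were tested two-sided on log2(FPKM + 1) by limma (3.58.1, R 4.3.3, trend on), with Benjamini-Hochberg adjustment over all genes with FPKM of at least 1 in at least 3 fitted libraries and at least 2 values per group. Short non-coding genes were left out. Groups came from the labels, and each of the 5 comparisons fitted the libraries of its own groups. A p-value of a single value by exact permutation could not go below 0.1 with 3 against 3, so none is given. No 2 libraries shared more than 0.593% of their FPKM values. Gene positions are mm9, with 1 added to the deposited starts, which count from 0. Motifs were searched on both strands. The fit was also run on simulated data whose noise was independent between genes and libraries, with changes added only to genes of higher level. That run does not cover variation shared along libraries or genes of low level.

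The 10 genes and the gene lists were chosen with earlier results of these data known. Genes to be named from a list were, per comparison, up to 4 with the smallest p among those that passed, or up to 2 given as not passing where none did; in the likeness search they were the 6 with the highest r. Alternatives were other pseudocounts, filters, scalings, limma settings, limma-voom on recovered fragments, a muscle covariate, a replicate block and libraries left out.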

Additional observations from a re-analysis of the deposited data

How the results depend on the processing

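Over the 5 comparisons, 929 of 1021 values of the 10 genes under an alternative kept their direction and their side of the threshold, 24 lost a call, 11 gained one and 59 changed sign, of which 2 are among the 24. For CWO in epidermis the 1 gene called, Ier3, became 0 with no filter on low values, with the muscle covariate, with the replicate block and without both epidermis vehicle libraries 1 and 2, and leaving out single libraries gave 0 to 1. In that comparison Fosl1 turned to -0.114 with a pseudocount of 0.1, -0.367 with limma-voom and -0.442 with the muscle covariate, and ran from -0.114 to 0.567 when single libraries were left out. Jun turned to -0.0695 and Nr4a1 to 0.0799 with the muscle covariate, and to -0.0457 and 0.277 without both vehicle libraries. For CWO in papilloma the muscle covariate gave -0.1 for Fos, -0.21 for Fosl1 and -0.163 for Jun, and single libraries left out gave -0.176 to 0.82 for Fos, -0.119 to 0.279 for Fosl1, -0.0919 to 0.143 for Jun, -0.16 to 0.0304 for Ier3 and -0.383 to 0.134 for Dusp1. For the CWO effect in papilloma minus that in epidermis, 1 gene passed with the muscle covariate, Ier3, against 0, and 0 to 1 with single libraries left out. There Fosl1 turned to -0.0235 with a pseudocount of 3 and -0.0736 with the muscle covariate, and Jun to 0.0526 and Junb to 0.0102 without both vehicle libraries. Single libraries left out gave -0.528 to 0.924 for Fosb, -0.441 to 0.725 for Fosl1 and -0.233 to 0.00168 for Jun. For papilloma against epidermis under vehicle 2 genes passed with the muscle covariate, Fosl1 and Ier3, against 6, and 5 to 6 with single libraries left out. The covariate turned Fosb to -0.561, Jun to -0.486 and Nr4a1 to 0.29, leaving out both vehicle libraries turned Fosb to -0.0665 and Jun to -0.167 and ended the call of Nr4a1 at -0.206, and single libraries gave -0.132 to 0.155 for Fosb and -0.0716 to 0.114 for Jun. Under CWO 0 genes passed with the muscle covariate against 5. The covariate gave -9.89 for Fosb, -0.123 for Fosl1 and -4.74 for Nr4a1. Median-ratio scaling gave 0.0982 for Fos and 0.023 for Jun and quantile normalization 0.163 and 0.115, settings that moved the median of all genes by 0.124 and 0.132. Single libraries left out gave -0.628 to 0.466 for Fos, -0.491 to 0.961 for Fosb and -0.213 to 0.022 for Jun. The cause of these changes was not tested. Without both vehicle libraries the lone one left is assumed to vary like the other group.

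Over all genes, the 245 calls for CWO in epidermis became 44 with no filter, 162 with limma-voom, 16 with the muscle covariate, 54 with the replicate block, 656 in the fit of all 12 libraries and 12 without both vehicle libraries. Without vehicle libraries 1, 2 and 3 they were 83, 104 and 684, and without CWO libraries 1 and 2 they were 64 and 94. The 98 calls for the difference of effects became 63 with no filter, 49 with limma-voom, 25 with the block, 17 without both vehicle libraries and 34 to 328 with single libraries left out. In papilloma the block gave 4 and the fit of all 12 libraries 1, against 0. The muscle covariate left 1479 of 8974 tissue calls under vehicle and 1 of 8731 under CWO. Replicate numbers were not shown to pair libraries: same-numbered CWO and vehicle libraries correlated by 0.0504, -0.442 and -0.370 in epidermis and by 0.262, 0.146 and 0.0210 in papilloma. With the replicate block Ier3 had an adjusted p of 0.111 for CWO in epidermis, and no other call of the 10 genes changed. Depth limits Fosl1 most, with 5.66 to 107 fragments per epidermis library.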
